A study of Homo sapiens with 6 samples.

Results

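The genes described here are 7: 5 transmembrane mucins, MUC15, MUC1, MUC13, MUC16 and MUC20, and the paired endoplasmic reticulum proteins AGR2 and AGR3. The 7 genes were taken by symbol from the 18417 that the platform annotation gives to a transcript cluster of their own, a cluster being the set of probes summarised into 1 value per array. Each of the 7 symbols sat on 1 cluster. They were chosen with their values in these same cells known, so their differences between lines are given as a description, without a test.

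Cells of 3 human breast cancer lines were measured on 6 Affymetrix Human Gene 1.0 ST arrays, 2 biological replicates per line by the labels. Bone metastasis had been the basis of selection for 231BoM-1833 and brain metastasis for 231BrM-2a, both starting from the triple-negative, mesenchymal line MDA-MB-231. No line carried a treatment, and in all of them the cells had been sorted magnetically as lacking CD24 and carrying CD44 and ESA, the EPCAM protein, a profile used to enrich cancer stem cells. Each derivative is 1 selected line, so selection for an organ and any other peculiarity of that line cannot be told apart. The comparison asked how the sorted cells of each derivative differ from the sorted parental cells. The derivatives were also set against each other.

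The values are log2 expression on a scale shared by the arrays, whose medians lay between 6.58 and 6.64. Replicate arrays correlated at 0.9935 to 0.9959 over 21214 named clusters, and arrays of different lines at 0.9666 to 0.9832, correlations that run across clusters and not across samples. A gene other than the 7 is said to rise, fall or be called where limma gave an adjusted p under 0.05, a p that measures the spread between these replicates, which may be technical. The gene lists used below were also chosen with earlier results of these data known, so their calls and shares are a description. No unsorted cells were on the arrays, so the sort markers do not check the sort. CD44 lay between 11.45 and 12.17, EPCAM between 7.28 and 8.32 and CD24 between 5.76 and 6.49 over the 6 arrays, and none of the 3 was called in a derivative against MDA-MB-231. CD44 in 231BrM-2a was near the threshold, at -0.41 ± 0.13 (limma adjusted p = 0.055, over the alternatives 0.0165 to 0.193), and some alternatives, among them the fit of the 2 lines alone, called it. CD44 was lower in 231BrM-2a than in 231BoM-1833 by 0.54 ± 0.13 (limma adjusted p = 0.014), a call lost without either array of 231BrM-2a or replicate 1 of 231BoM-1833 (adjusted p over the alternatives 0.00415 to 0.074). Mean log2 levels over 9 leukocyte markers were 6.43 to 6.49 in 231BoM-1833, 6.21 to 6.22 in 231BrM-2a and 6.38 to 6.45 in MDA-MB-231. No background level came with the values, so no marker could be placed at 0.

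Mucins are large glycoproteins whose protein backbone is densely covered with sugars attached to serine and threonine, and the transmembrane members stand on the surface of epithelial cells as a barrier and as a signalling platform. Their sugars are built in the Golgi, starting with the GALNT enzymes, after the protein has folded in the endoplasmic reticulum. AGR2 is a member of the protein disulfide isomerase family that works there, needed in mouse intestine for the production of the gel-forming mucin Muc2 and raised in many adenocarcinomas. In breast tumours MUC1 is often no longer restricted to the apical surface, and AGR2 is known mostly from oestrogen receptor-positive disease.

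MUC15, a transmembrane mucin known from the milk fat globule membrane, was high in the bone-selected line and lowest in the brain-selected line. Its log2 values were 9.13 and 9.24 in 231BoM-1833, 4.73 and 4.91 in 231BrM-2a, and 5.85 and 5.94 in MDA-MB-231. The 3 lines did not overlap, and replicates lay within 0.18 of each other in every line. The mean of 231BoM-1833 was 9.19 ± 0.074, against 5.90 ± 0.064 in MDA-MB-231 (SD, n = 2 each), a log2 difference of 3.29 ± 0.11 (SE) or 9.76-fold. In 231BrM-2a the mean was 4.82 ± 0.13 (SD, n = 2), which put it below MDA-MB-231 by 1.08 ± 0.11 on the log2 scale, 2.12-fold lower. Whether values as low as those of 231BrM-2a lie near the floor of the array, where differences are compressed, is not known. In bulk RNA, fewer cells with the transcript and less of it per cell cannot be told apart. The distance between the derivatives was larger than the distance of either from the parental line, at -4.37 ± 0.11 for 231BrM-2a minus 231BoM-1833, or 20.7-fold lower in 231BrM-2a.

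Among the 21214 named clusters, 6 had a larger increase than MUC15 in 231BoM-1833 against MDA-MB-231, and 5 had a larger decrease in 231BrM-2a against 231BoM-1833. Its decrease in 231BrM-2a against MDA-MB-231 was exceeded by 174 clusters. Over the 6 arrays MUC15 spanned 4.51 log2 units, more than 99.9% of named clusters, where the median cluster spanned 0.48.

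Markers of other cell types and states also moved in 231BoM-1833 against MDA-MB-231. Of 9 luminal epithelial markers none rose and 2 fell, KRT7 by 1.45 ± 0.12 (limma adjusted p = 0.000139) and KRT18. Of 8 mesenchymal markers 2 rose, SPARC by 3.21 ± 0.26 (limma adjusted p = 0.000138) and ZEB2, and ZEB1 fell. Of 9 leukocyte markers CD14 rose and NKG7 fell, and of 9 endothelial and stromal markers KDR rose and DCN and ACTA2 fell. The shares called were 22.2% of the luminal and of the leukocyte list, 37.5% of the mesenchymal and 33.3% of the endothelial and stromal list. Of all named clusters 15.8% were called. The mean levels in 231BoM-1833 and MDA-MB-231 were 7.71 to 7.72 and 7.89 to 7.93 for the luminal list, 8.92 to 9.21 and 8.76 to 8.77 for the mesenchymal list, and 6.09 to 6.12 and 6.22 to 6.26 for the endothelial and stromal list. Their part in the MUC15 and AGR2 differences was not tested.

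**Figure D1:**
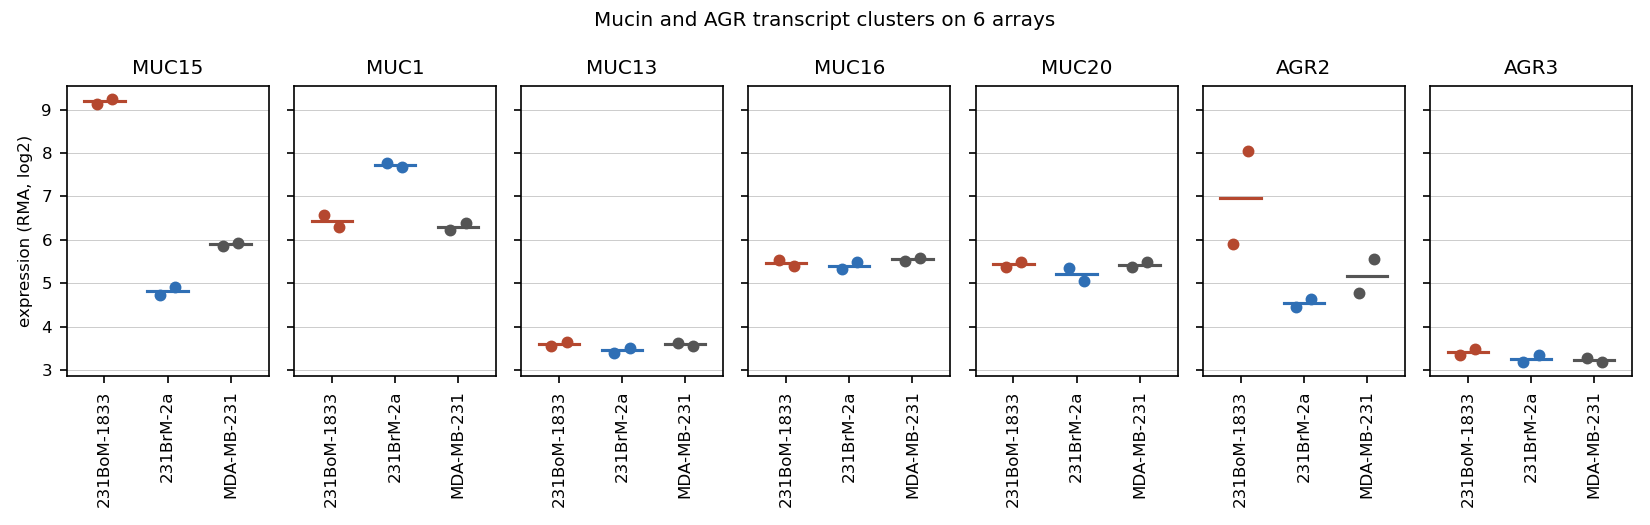
Log2 expression of the 7 transcripts on each array, with 1 panel per gene, 1 point per array and a bar at the mean of the 2 arrays of a line. MUC15 separates all 3 lines, MUC1 stands apart in 231BrM-2a, AGR2 is split between the 2 arrays of 231BoM-1833, and the other 4 genes stay within 0.45 of their own lowest array. Levels of different genes come from different probes and are not compared.

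MUC15 lies on chromosome 11 within the span of ANO3, a gene of the anoctamin family of membrane proteins, by the RefSeq gene table of assembly GRCh38.p14. ANO3 had log2 values of 5.29 and 5.43 in 231BoM-1833, 5.01 and 4.73 in 231BrM-2a, and 5.11 and 5.16 in MDA-MB-231. The gene around MUC15 was thus called in neither derivative against MDA-MB-231, with log2 differences of 0.22 ± 0.12 in 231BoM-1833 (limma adjusted p = 0.256) and -0.27 ± 0.12 in 231BrM-2a (limma adjusted p = 0.173). Between the derivatives ANO3 was lower in 231BrM-2a by 0.48 ± 0.12 (limma adjusted p = 0.0204), in the direction of MUC15 and far smaller. That call was lost with all clusters tested (limma adjusted p = 0.0567). It was also lost without replicate 2 of 231BoM-1833 or of 231BrM-2a, where the difference was -0.41 and -0.34. ANO3 was among the dimmest 33.3% of named clusters, and whether its differences are compressed near the floor of the array is not known.

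The genes whose profile lay closest to MUC15 were found by centring each of 17513 genes on its own mean over the 6 arrays and taking the root mean square distance. The nearest was IL1B, the inflammatory cytokine interleukin-1 beta, at 0.29, followed by IL13RA2, the decoy receptor for interleukin-13, at 0.43, the adhesion receptor ADGRF5 at 0.45, the cancer-testis antigen MAGEC2 at 0.46 and the class II chain HLA-DPA1 at 0.47. IL1B was at 11.78 and 12.28 in 231BoM-1833, 7.84 and 8.33 in 231BrM-2a, and 9.42 and 9.07 in MDA-MB-231. All 5 shared the order of MUC15, with 231BoM-1833 highest and 231BrM-2a lowest. Of the other genes described here, AGR2 was the 60th closest to MUC15, at a distance of 1.04, and MUC1 was the 17305th, at 2.32. These distances describe 6 arrays from 3 lines and carry no test.

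**Figure D2:**
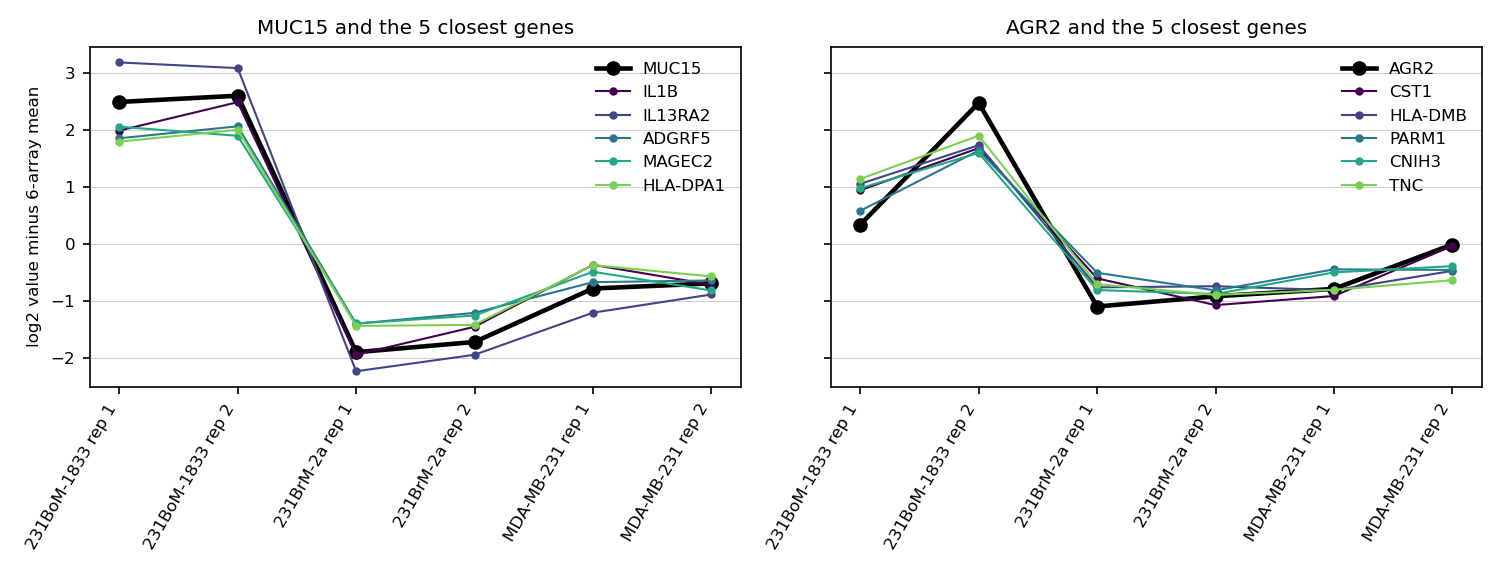
Profiles of MUC15 (left) and AGR2 (right) with the 5 genes closest to each, drawn as the log2 value on each array minus the gene's mean over the 6 arrays. The genes nearest MUC15 sit high on both arrays of 231BoM-1833 and low on both of 231BrM-2a, and the genes nearest AGR2 are all higher on the second array of 231BoM-1833 than on the other 5 arrays.

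MUC1, the best studied transmembrane mucin, whose cytoplasmic tail binds beta-catenin and receptor kinases, had the opposite preference. A promoter window of 300 bases is shown because MUC1, of the 5 mucins, was the one highest in the brain-selected line. The window, 1 of 2 given for MUC1, runs from 250 bases before to 50 bases after the start, on the minus strand at chr1:155192866-155193165 in GRCh38.p14. RefSeq windows were matched for 5 of the 7 genes, not for MUC15 and MUC20. Capitals mark 4 motifs, searched on both strands: the TATA box TATAAA, the E-box CACCTG that repressors of the SNAI and ZEB families can bind, the GC box GGGCGG and the ETS core GGAA.
MUC1: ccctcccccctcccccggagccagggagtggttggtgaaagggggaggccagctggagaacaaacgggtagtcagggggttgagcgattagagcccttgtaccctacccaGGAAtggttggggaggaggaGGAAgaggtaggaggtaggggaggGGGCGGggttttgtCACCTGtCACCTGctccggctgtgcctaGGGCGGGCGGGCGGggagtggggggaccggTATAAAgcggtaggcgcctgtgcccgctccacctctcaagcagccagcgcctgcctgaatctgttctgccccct
The window holds 1 TATAAA, 2 CACCTG, 4 GGGCGG, some of which overlap each other, and 2 GGAA. Of the 35116 RefSeq windows of this length, 11.5% hold TATAAA, 20.6% CACCTG, 45.0% GGGCGG and 95.5% GGAA. A match says only that the letters are there. The GC content of the window was 65.7%, where the median window had 58.7%.

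MUC1 had log2 values of 6.57 and 6.29 in 231BoM-1833, 7.76 and 7.68 in 231BrM-2a, and 6.22 and 6.38 in MDA-MB-231. Both arrays of 231BrM-2a lay above the other 4, and the arrays of 231BoM-1833 and MDA-MB-231 overlapped. The mean of 231BrM-2a was 7.72 ± 0.056, against 6.30 ± 0.11 in MDA-MB-231 (SD, n = 2 each), a difference of 1.42 ± 0.13 (SE) or 2.68-fold. Against 231BoM-1833, with a mean of 6.43 ± 0.2 (SD, n = 2), 231BrM-2a was higher by 1.29 ± 0.13, 2.44-fold. The difference of 231BoM-1833 from MDA-MB-231 was 0.13 ± 0.13, the size of its standard error, and it turned sign with the array kept, at 0.27 with replicate 1 alone and -0.01 with replicate 2 alone. In 231BrM-2a against MDA-MB-231, 167 named clusters had a larger increase than MUC1.

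Markers of other cells moved in 231BrM-2a as well. Of 9 endothelial and stromal markers, 4 rose in 231BrM-2a against MDA-MB-231 (PDGFRB, DCN, LUM and COL1A1) and 2 fell (PECAM1 and KDR). Their mean level was 6.38 to 6.52 in 231BrM-2a, against 6.22 to 6.26 in MDA-MB-231. Among 9 luminal epithelial markers, the keratins KRT7 and KRT8 rose and KRT19 fell. Of 8 mesenchymal markers SPARC rose and VIM and ZEB1 fell, and of 9 leukocyte markers CD14 and NKG7 fell. The shares called were 66.7%, 33.3%, 37.5% and 22.2% of these lists in that order, where 19% of all named clusters were called. The part of these markers in the MUC1 difference was not tested.

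MUC13, MUC16 and MUC20 varied little. MUC13, a mucin of the gut surface, had log2 values of 3.55 and 3.66 in 231BoM-1833, 3.40 and 3.52 in 231BrM-2a, and 3.63 and 3.56 in MDA-MB-231. MUC16, which binds mesothelin, had 5.53 and 5.40 in 231BoM-1833, 5.34 and 5.49 in 231BrM-2a, and 5.52 and 5.58 in MDA-MB-231. MUC20, which can associate with the receptor MET, had 5.38 and 5.50 in 231BoM-1833, 5.35 and 5.06 in 231BrM-2a, and 5.37 and 5.49 in MDA-MB-231. In 231BoM-1833 the log2 differences of these 3 from MDA-MB-231 ran from -0.08 to 0.01, with standard errors of 0.11 to 0.13. In 231BrM-2a they ran from -0.23 to -0.13, and the largest, for MUC20, was -0.08 or -0.37 depending on which array of 231BrM-2a was kept. The span over the 6 arrays was 0.27 for MUC13, 0.24 for MUC16 and 0.45 for MUC20, all below the median span of named clusters. Whether values this low lie near the floor of the array, where differences are compressed, is not known.

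AGR2 and AGR3 are closely related genes that lie next to each other on chromosome 7, with a pseudogene between them in the RefSeq table. Their promoter windows are shown side by side because AGR2 differed between arrays where AGR3 varied little. Both are on the minus strand of GRCh38.p14, AGR2 at chr7:16804950-16805249 and AGR3 at chr7:16881934-16882233, with capitals as for MUC1 on either strand.
AGR2: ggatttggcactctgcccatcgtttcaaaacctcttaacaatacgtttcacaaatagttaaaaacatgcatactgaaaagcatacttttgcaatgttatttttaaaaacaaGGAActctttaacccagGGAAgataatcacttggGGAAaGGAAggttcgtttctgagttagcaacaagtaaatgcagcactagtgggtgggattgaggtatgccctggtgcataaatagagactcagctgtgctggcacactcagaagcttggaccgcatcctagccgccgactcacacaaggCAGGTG
AGR3: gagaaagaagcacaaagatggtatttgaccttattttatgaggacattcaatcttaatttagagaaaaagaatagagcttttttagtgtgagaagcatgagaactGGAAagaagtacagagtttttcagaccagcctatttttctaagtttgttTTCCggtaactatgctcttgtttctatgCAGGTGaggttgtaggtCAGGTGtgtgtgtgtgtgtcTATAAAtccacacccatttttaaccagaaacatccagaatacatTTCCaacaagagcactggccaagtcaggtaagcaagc
The AGR2 window holds 4 GGAA, 1 CACCTG and neither TATAAA nor GGGCGG. The AGR3 window holds 3 GGAA, 2 CACCTG and 1 TATAAA. Their GC contents were 43.7% and 38.0%.

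AGR2 was highest in 231BoM-1833 on average, but the 2 arrays of that line disagreed. Its log2 values were 5.90 and 8.04 in 231BoM-1833, 4.46 and 4.64 in 231BrM-2a, and 4.77 and 5.55 in MDA-MB-231. Both arrays of 231BoM-1833 lay above all others and both of 231BrM-2a below, so the lines did not overlap, yet replicate 1 of 231BoM-1833 was closer to replicate 2 of MDA-MB-231 than to its own partner. The means were 6.97 ± 1.5 in 231BoM-1833, 4.55 ± 0.13 in 231BrM-2a and 5.16 ± 0.55 in MDA-MB-231 (SD, n = 2 each).

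The AGR2 difference of 231BoM-1833 from MDA-MB-231 was 1.81 ± 0.55 (SE), 3.51-fold. In the fit the 3 lines share 1 spread, which limma also draws towards that of other clusters. The standard error is therefore the same in all 3 comparisons and does not show the wider spread of 231BoM-1833 alone, with its SD of 1.5. The difference was 0.74 (1.67-fold) when replicate 1 of 231BoM-1833 alone stood for the line and 2.88 (7.36-fold) when replicate 2 did. In 231BrM-2a AGR2 differed from MDA-MB-231 by -0.61 ± 0.55, little more than its standard error, and by -1.0 without replicate 1 and -0.22 without replicate 2 of MDA-MB-231. 231BrM-2a was below 231BoM-1833 by 2.42 ± 0.55, 5.35-fold, a distance of -1.35 with replicate 1 and -3.49 with replicate 2 of 231BoM-1833. The direction held with either array, and the size did not. AGR2 was among the dimmest 33.3% of named clusters, and whether its values in 231BrM-2a lie near the floor of the array is not known.

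The AGR2 gap lay at the edge of all gaps between the arrays of 231BoM-1833. In 231BoM-1833 the arrays differed by 2.14, and of the 21214 named clusters only TNFSF15, a cytokine of the tumour necrosis factor family, had a larger gap, at 2.42. The median gap there was 0.14 and the 95th percentile 0.48. In MDA-MB-231 the AGR2 gap was 0.78, exceeded by 27 clusters (0.127%), where the median was 0.11. In 231BrM-2a it was 0.18, exceeded by 29.2% of clusters. In both lines with a wide gap replicate 2 was the higher array. MUC15 had a gap of 0.10 in 231BoM-1833, which 61.1% of clusters exceeded, so the 2 arrays that disagreed on AGR2 gave nearly the same MUC15.

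**Figure D3:**
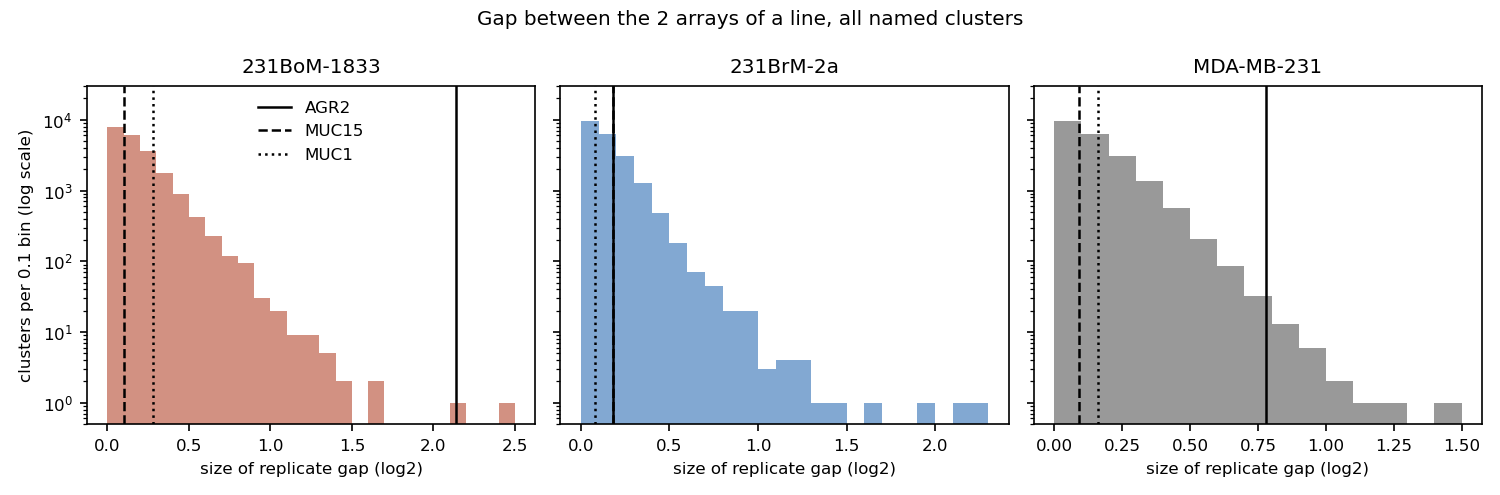
Size of the log2 gap between the 2 arrays of each line over 21214 named clusters, as counts per bin of 0.1 on a log scale, with vertical lines at AGR2, MUC15 and MUC1. AGR2 stands at 2.14 at the right edge in 231BoM-1833, at 0.78 in the tail in MDA-MB-231 and within the bulk in 231BrM-2a, where its line and that of MUC15 coincide at 0.18.

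Other genes differed between the same arrays. EPCAM, a sort marker, had log2 values of 8.32 and 7.28 in replicates 1 and 2 of 231BoM-1833, CD24 had 6.49 and 5.76, and CD44 had 12.17 and 11.82. All 3 sort markers were lower on the array where AGR2 was higher. Of the 18 other measured genes of disulfide bond formation in the endoplasmic reticulum, 13 were higher on replicate 2 of 231BoM-1833, with a median gap of 0.22 where that of all clusters was 0.002. In 231BrM-2a 8 of the 18 and in MDA-MB-231 7 of the 18 were higher on replicate 2. PDIA4 and ERO1B, picked after their values were seen, had 11.80 and 12.77 and 8.20 and 9.15 on replicates 1 and 2 of 231BoM-1833. Whether the sort or the state of the cells at harvest had a part in the AGR2 gap was not tested.

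AGR3 varied little over the arrays where AGR2 varied most. Its log2 values were 3.34 and 3.49 in 231BoM-1833, 3.20 and 3.34 in 231BrM-2a, and 3.29 and 3.18 in MDA-MB-231, a span of 0.31. AGR3 was among the dimmest 33.3% of named clusters, and whether values this low lie near the floor of the array is not known. The difference from MDA-MB-231 was 0.18 ± 0.11 in 231BoM-1833 and 0.04 ± 0.11 in 231BrM-2a. On the other side of AGR2 lies TSPAN13, a tetraspanin membrane protein, with 8.04 and 8.07 in 231BoM-1833, 7.24 and 7.58 in 231BrM-2a, and 7.39 and 7.16 in MDA-MB-231. TSPAN13 rose in 231BoM-1833 by 0.78 ± 0.14 (limma adjusted p = 0.00746) and was lower in 231BrM-2a than in 231BoM-1833 by 0.65 ± 0.14 (limma adjusted p = 0.00906). The call of the rise was lost without replicate 2 of MDA-MB-231, where the difference was 0.67. The second call was lost without replicate 1 of 231BrM-2a, where the difference was -0.47. TSPAN13 had nearly equal values on the 2 arrays of 231BoM-1833 that disagreed on AGR2.

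The closest profiles to AGR2 were those of CST1, a cystatin that inhibits cysteine proteases, at 0.46, the class II peptide-loading chain HLA-DMB and the mucin-like PARM1 at 0.49 each, and CNIH3 and the matrix protein tenascin C, TNC, at 0.50 each. PARM1 had 6.50 and 7.56 in 231BoM-1833, 5.41 and 5.10 in 231BrM-2a, and 5.47 and 5.46 in MDA-MB-231. All 5 were higher on replicate 2 than on replicate 1 of 231BoM-1833, by 0.62 to 1.06. SPDEF, a secretory-cell transcription factor taken up below, was the 66th closest at 0.74, and MUC15 the 1054th at 1.04.

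Of the 7 genes, the fit over all 6 arrays called 1 in 231BoM-1833 against MDA-MB-231, MUC15, where 15.8% of all named clusters were called. It called 2 in 231BrM-2a against MDA-MB-231, MUC1 as higher and MUC15 as lower, where 19% were. Between 231BrM-2a and 231BoM-1833 it called 3, MUC1 as higher and MUC15 and AGR2 as lower, where 23.5% were. The AGR2 call was lost without either array of 231BrM-2a, with all clusters tested, and with limma's trend and robust options. Nothing is read from these counts or from the calls of these genes, since the genes were chosen on the same values. The median difference over the 7 was 0.13 in 231BoM-1833 and -0.14 in 231BrM-2a against MDA-MB-231, where the medians over all clusters were -0.052 and -0.05.

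**Figure D4:**
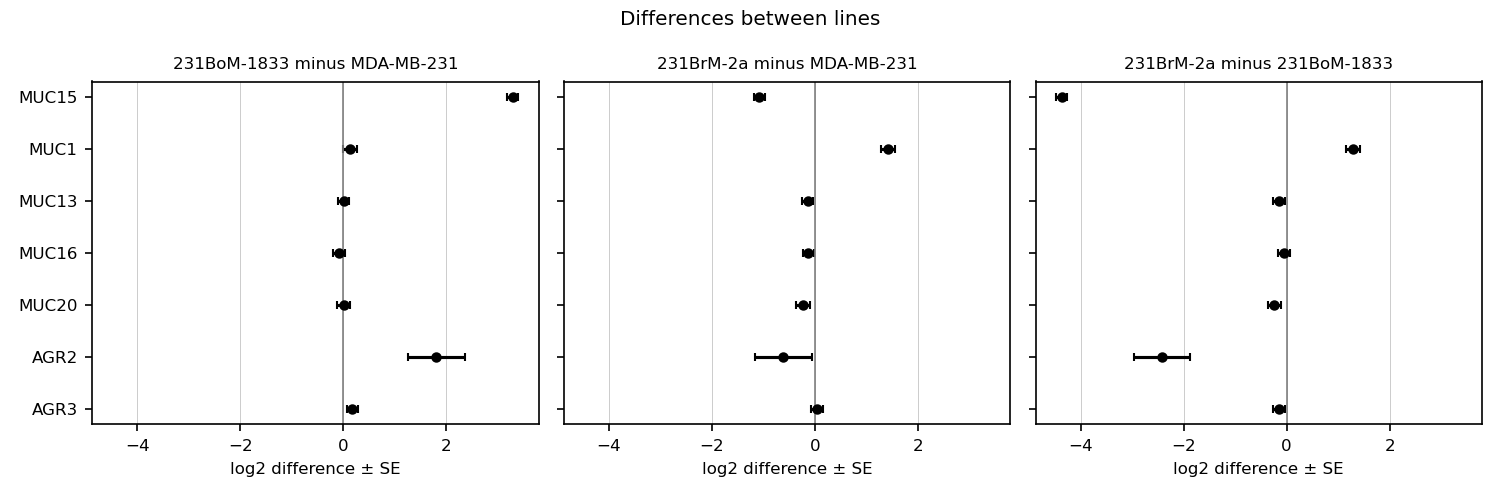
Log2 differences of the 7 transcripts with their standard errors, for 231BoM-1833 minus MDA-MB-231 (left), 231BrM-2a minus MDA-MB-231 (middle) and 231BrM-2a minus 231BoM-1833 (right). MUC15 lies at 3.29, -1.08 and -4.37, MUC1 at 0.13, 1.42 and 1.29, and the standard error of 0.55 for AGR2 exceeds the 0.11 to 0.13 of the other 6.

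In a list of other mucins, which also holds sialomucins and the adhesion molecule MCAM, MCAM had the largest called change against MDA-MB-231 in both derivatives. Of its 17 measured genes, MCAM alone rose and 2 fell in 231BoM-1833 against MDA-MB-231. In 231BrM-2a MCAM and PODXL rose and none fell, and PODXL alone was higher in 231BrM-2a than in 231BoM-1833. The shares called were 17.6%, 11.8% and 5.88%, where those of all named clusters were 15.8%, 19% and 23.5%. Their median differences were -0.06, -0.04 and 0.00. MCAM, an adhesion molecule of the melanoma and vessel surface, had log2 values of 9.97 and 10.09 in 231BoM-1833, 9.95 and 10.38 in 231BrM-2a, and 8.96 and 8.54 in MDA-MB-231. It rose in 231BoM-1833 by 1.28 ± 0.17 (limma adjusted p = 0.00213) and in 231BrM-2a by 1.41 ± 0.17 (limma adjusted p = 0.000793). PODXL, the sialomucin podocalyxin, had 9.29 and 9.12 in 231BoM-1833, 10.24 and 9.95 in 231BrM-2a, and 9.61 and 9.53 in MDA-MB-231. Like MUC1 it was highest in 231BrM-2a, by 0.52 ± 0.13 over MDA-MB-231 (limma adjusted p = 0.0203) and by 0.89 ± 0.13 over 231BoM-1833 (limma adjusted p = 0.00108).

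The mucins that fell in 231BoM-1833 were MUC6, a gel-forming mucin of the stomach, by 0.46 ± 0.11 (limma adjusted p = 0.0252), and MUC21, a transmembrane mucin of squamous epithelium, by 0.40 ± 0.12 (limma adjusted p = 0.0491). Both calls were weak. Over the alternatives the adjusted p ran from 0.0183 to 0.17 for MUC6, from 0.0341 to 0.247 for MUC21 and from 0.0129 to 0.147 for PODXL in 231BrM-2a, and all 3 calls were lost without either array of MDA-MB-231. The MUC6 call was also lost without replicate 2 of 231BoM-1833, and the PODXL call without replicate 1 of 231BrM-2a. The MUC21 call was lost too without replicate 1 of 231BoM-1833. Testing all clusters lost all 3 calls. That of MUC21 was also lost with the other normalisation, centring, the fit of 2 lines alone and the replicate block. Leaving out an array of 231BrM-2a repeats that fit of 2 lines and lost the call as well. The secreted mucins MUC2, MUC5B and MUC7 and the transmembrane MUC4, MUC12 and MUC17 were called in no comparison, with MUC4 at 5.42 and 5.68 in 231BoM-1833, 5.73 and 5.74 in 231BrM-2a, and 5.72 and 5.73 in MDA-MB-231.

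The enzymes that build mucin-type sugars differed between the lines in both directions. Of 30 measured enzymes and chaperones of O-glycosylation, 5 rose and 2 fell in 231BoM-1833 against MDA-MB-231, where 8.43% of all clusters rose and 7.38% fell. In 231BrM-2a 7 rose and 2 fell, where 10.5% rose and 8.59% fell. Between 231BrM-2a and 231BoM-1833, 8 were higher and 5 lower, where 12.5% and 11% of clusters were. The list's medians were -0.05, 0.03 and 0.04. Once each array was centred on its median, 1997 clusters rose and 1129 fell in 231BoM-1833, against 1789 and 1565 as deposited, and no called gene of the lists turned sign.

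GALNT5, which starts O-glycan chains, had log2 values of 8.63 and 8.19 in 231BoM-1833, 7.17 and 7.75 in 231BrM-2a, and 6.12 and 6.15 in MDA-MB-231. It rose in both derivatives, by 2.27 ± 0.20 in 231BoM-1833 (4.84-fold, limma adjusted p = 0.000204) and by 1.32 ± 0.20 in 231BrM-2a (2.50-fold, limma adjusted p = 0.00205). GALNT2, a widely expressed enzyme of the same family, had 10.05 and 9.96 in 231BoM-1833, 11.02 and 11.23 in 231BrM-2a, and 9.80 and 9.72 in MDA-MB-231. Its rise was called in 231BrM-2a, by 1.37 ± 0.11 over MDA-MB-231 (limma adjusted p = 9.43e-05) and by 1.12 ± 0.11 over 231BoM-1833 (limma adjusted p = 0.000159).

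GALNT14, a family member tied in cancer cells to death receptor glycosylation, followed the order of MUC15. It had 8.58 and 8.58 in 231BoM-1833, 6.94 and 7.01 in 231BrM-2a, and 7.56 and 7.72 in MDA-MB-231. It rose in 231BoM-1833 by 0.94 ± 0.11 (limma adjusted p = 0.000886), fell in 231BrM-2a by 0.66 ± 0.11 (limma adjusted p = 0.00296) and was lower in 231BrM-2a than in 231BoM-1833 by 1.60 ± 0.11 (limma adjusted p = 1.39e-05). C1GALT1, which makes the core 1 structure that most mucin chains are built on, had the same order at 9.31 and 8.98 in 231BoM-1833, 8.04 and 7.87 in 231BrM-2a, and 8.55 and 8.45 in MDA-MB-231. 231BrM-2a was below 231BoM-1833 by 1.19 ± 0.13 (limma adjusted p = 0.000274).

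Against MDA-MB-231 the C1GALT1 differences were 0.65 ± 0.13 in 231BoM-1833 (limma adjusted p = 0.0135) and -0.55 ± 0.13 in 231BrM-2a (limma adjusted p = 0.02). Both calls were lost without either array of MDA-MB-231, with adjusted p over the alternatives of 0.00843 to 0.101 and 0.00823 to 0.142, and the second also without either array of 231BrM-2a. GCNT4, which branches core 1 into core 2, had 5.82 and 5.06 in 231BoM-1833, 7.0 and 7.17 in 231BrM-2a, and 6.03 and 5.51 in MDA-MB-231. It was highest in 231BrM-2a, by 1.31 ± 0.24 over MDA-MB-231 (limma adjusted p = 0.00558, over the alternatives 0.000263 to 0.0595, the call lost without replicate 2 of MDA-MB-231) and by 1.64 ± 0.24 over 231BoM-1833 (limma adjusted p = 0.0013). GALNT12 rose in 231BrM-2a by 1.19 ± 0.16 (limma adjusted p = 0.00112). GALNT3 rose in 231BoM-1833 by 0.84 ± 0.17 (limma adjusted p = 0.011, over the alternatives 0.00776 to 0.0967, the call lost without replicate 2 of MDA-MB-231).

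**Figure D5:**
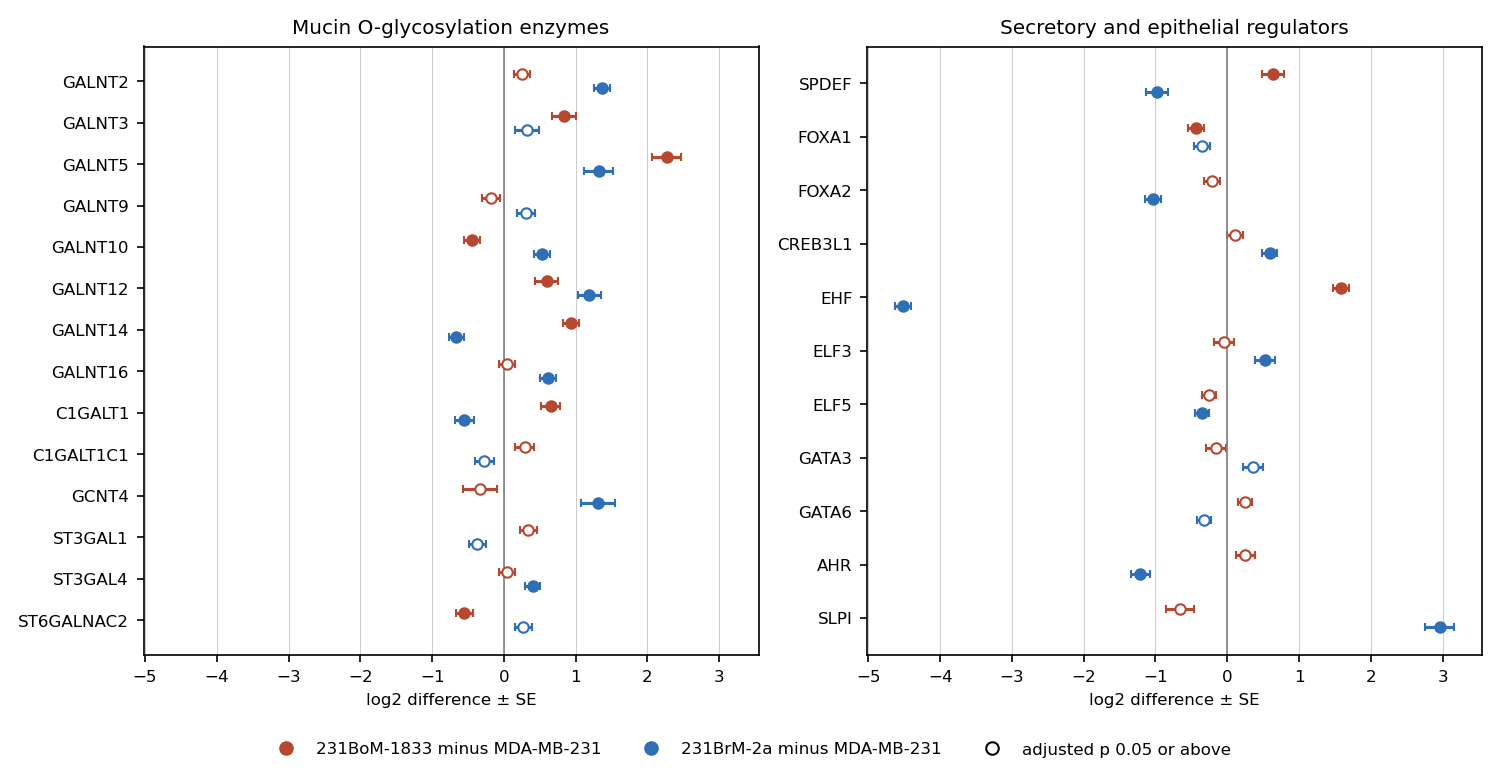
Log2 differences from MDA-MB-231 with their standard errors, for the measured O-glycosylation enzymes (left) and the secretory and epithelial regulators (right) that were called in at least 1 of the 3 comparisons. Red stands for 231BoM-1833, blue for 231BrM-2a, and open symbols for an adjusted p of 0.05 or above. GALNT14, C1GALT1, SPDEF and EHF lie to the right of 0 in 231BoM-1833 and to the left in 231BrM-2a, GALNT10 lies the other way round, and EHF in 231BrM-2a reaches -4.52.

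Among genes of disulfide bond formation, which include the family of AGR2, the largest called change was that of ERO1B. Of 18 measured, 4 rose and none fell in 231BoM-1833 against MDA-MB-231, 1 rose and none fell in 231BrM-2a, and 1 was higher and 1 lower in 231BrM-2a than in 231BoM-1833. The shares called were 22.2%, 5.56% and 11.1%, where those of all clusters were 15.8%, 19% and 23.5%. The list's medians were 0.06, 0.19 and -0.12, where all clusters had -0.052, -0.05 and 0.013. ERO1B, an oxidase that recharges the isomerases, rose in 231BoM-1833 by 1.44 ± 0.32 (limma adjusted p = 0.0173), with its arrays 0.95 apart as given above. ERP44, which retains incompletely folded proteins, had log2 values of 10.57 and 10.98 in 231BoM-1833, 10.71 and 10.58 in 231BrM-2a, and 10.14 and 9.90 in MDA-MB-231. It rose by 0.75 ± 0.15 in 231BoM-1833 (limma adjusted p = 0.0128) and by 0.63 ± 0.15 in 231BrM-2a (limma adjusted p = 0.0207).

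TXNDC12, the closest relative of AGR2 and AGR3, had 10.69 and 10.75 in 231BoM-1833, 10.39 and 10.43 in 231BrM-2a, and 10.10 and 10.21 in MDA-MB-231. It rose in 231BoM-1833 by 0.57 ± 0.10 (limma adjusted p = 0.0083), with no replicate gap like that of AGR2. TMX4, a membrane-bound thioredoxin relative, rose in 231BoM-1833 by 0.66 ± 0.12 (limma adjusted p = 0.00806) and was lower in 231BrM-2a than in 231BoM-1833 by 0.97 ± 0.12 (limma adjusted p = 0.000448). PDIA5 was higher in 231BrM-2a than in 231BoM-1833 by 0.60 ± 0.13 (limma adjusted p = 0.00936). None of the 4 calls in 231BoM-1833 held in both fits short of an array of MDA-MB-231. That of TXNDC12 was lost without replicate 1, those of ERP44 and ERO1B without replicate 2, and that of TMX4 without either. The ERO1B call was also lost without replicate 2 of 231BoM-1833, the ERP44 call in 231BrM-2a without replicate 2 of MDA-MB-231 or either array of 231BrM-2a, and the PDIA5 call without replicate 2 of 231BrM-2a. The adjusted p of these 6 calls over the alternatives ran from 0.00313 at the lowest to 0.155 at the highest.

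Regulators and products of secretory epithelium included the largest changes of the lists examined here, all chosen with earlier results of these data known. Of 26 measured, 2 rose and 1 fell in 231BoM-1833 against MDA-MB-231, 3 rose and 5 fell in 231BrM-2a, and 4 were higher and 5 lower in 231BrM-2a than in 231BoM-1833. The shares called were 11.5%, 30.8% and 34.6%, where those of all clusters were 15.8%, 19% and 23.5%. The medians were -0.08, -0.14 and -0.01. SPDEF, an ETS factor that drives goblet cell formation in mice and lies upstream of Agr2 in mouse airway, had log2 values of 7.82 and 8.11 in 231BoM-1833, 6.39 and 6.30 in 231BrM-2a, and 7.15 and 7.49 in MDA-MB-231. The lines had the same order as for AGR2 and MUC15 and did not overlap. SPDEF was lower in 231BrM-2a than in 231BoM-1833 by 1.62 ± 0.15 (3.07-fold, limma adjusted p = 7.67e-05) and than in MDA-MB-231 by 0.98 ± 0.15 (limma adjusted p = 0.00201). In 231BoM-1833 it rose by 0.64 ± 0.15 (limma adjusted p = 0.0194), a call lost without replicate 1 of MDA-MB-231 or replicate 2 of 231BoM-1833 (adjusted p over the alternatives 0.0137 to 0.116).

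EHF, an epithelial ETS factor, also had that order, at 10.84 and 10.83 in 231BoM-1833, 4.71 and 4.77 in 231BrM-2a, and 9.16 and 9.36 in MDA-MB-231. EHF rose in 231BoM-1833 by 1.58 ± 0.11 (limma adjusted p = 5.75e-05), less than the difference of MUC15. It fell in 231BrM-2a by 4.52 ± 0.11 (limma adjusted p = 2.84e-07), more than the difference of MUC15. Over the 6 arrays EHF was the 301st closest of 17513 genes to MUC15, at a distance of 1.40. From AGR2 it was the 17453rd, at 1.90, so EHF shared the order of the lines with AGR2 and not the profile. AHR, the aryl hydrocarbon receptor, fell in 231BrM-2a by 1.21 ± 0.13 (limma adjusted p = 0.000345) and FOXA2, which restrains goblet cell formation in mouse lung, by 1.03 ± 0.11 (limma adjusted p = 0.000377). SLPI, a secreted protease inhibitor of mucous surfaces, ran with MUC1, at 6.48 and 5.80 in 231BoM-1833, 9.84 and 9.67 in 231BrM-2a, and 6.90 and 6.69 in MDA-MB-231. It was higher in 231BrM-2a than in 231BoM-1833 by 3.62 ± 0.20 (limma adjusted p = 4.09e-06).

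FOXA1, a pioneer factor of luminal breast cells, fell in 231BoM-1833 by 0.44 ± 0.11 (limma adjusted p = 0.0268), a call lost without either array of MDA-MB-231 or replicate 2 of 231BoM-1833 (adjusted p over the alternatives 0.0193 to 0.146). The trefoil factors TFF1, TFF2 and TFF3, the oestrogen receptor ESR1, XBP1 and CLCA1, all companions of secreted mucins or of AGR2 in other tissues, were called in none of the 3 comparisons.

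Among partners and sheddases of transmembrane mucins, the largest called changes were those of ADAM10 and ICAM1 in 231BrM-2a. Of 20 measured, 2 rose and none fell in 231BoM-1833 against MDA-MB-231, 4 rose and none fell in 231BrM-2a, and 4 were higher and 1 lower in 231BrM-2a than in 231BoM-1833. The shares called were 10.0%, 20.0% and 25.0%, where those of all clusters were 15.8%, 19% and 23.5%. The medians were 0.12, 0.13 and 0.04. ADAM10, a membrane protease that cuts many surface proteins, had log2 values of 11.19 and 11.10 in 231BoM-1833, 12.11 and 12.22 in 231BrM-2a, and 11.01 and 10.98 in MDA-MB-231. It rose in 231BrM-2a by 1.17 ± 0.10 over MDA-MB-231 (2.25-fold, limma adjusted p = 0.000127) and was higher there than in 231BoM-1833 by 1.02 ± 0.10 (limma adjusted p = 0.000166). ADAM17, which sheds MUC1, was called in no comparison, at 10.47 and 10.64 in 231BoM-1833, 10.51 and 10.28 in 231BrM-2a, and 10.26 and 10.37 in MDA-MB-231. MMP14 was the 1 gene of the list lower in 231BrM-2a than in 231BoM-1833, at -0.38. That call was lost with all clusters tested and without any single array of either derivative.

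ICAM1, an adhesion molecule that binds MUC1, had 10.72 and 10.39 in 231BoM-1833, 11.07 and 11.30 in 231BrM-2a, and 9.94 and 10.19 in MDA-MB-231. It was highest in 231BrM-2a, by 1.12 ± 0.15 over MDA-MB-231 (limma adjusted p = 0.0011) and by 0.63 ± 0.15 over 231BoM-1833 (limma adjusted p = 0.014). ERBB2, a receptor kinase that associates with MUC1, was higher in 231BrM-2a by 0.45 ± 0.11 over MDA-MB-231 (limma adjusted p = 0.0235) and by 0.80 ± 0.11 over 231BoM-1833 (limma adjusted p = 0.00102). MSLN, the mesothelin that MUC16 binds, rose by 0.47 ± 0.13 in 231BoM-1833 (limma adjusted p = 0.0463) and by 0.65 ± 0.13 in 231BrM-2a (limma adjusted p = 0.00998). MSN, a linker between membrane proteins and actin, rose in 231BoM-1833 by 0.48 ± 0.10 (limma adjusted p = 0.0137). LGALS3, the mucin-binding lectin galectin-3, was higher in 231BrM-2a than in 231BoM-1833 by 0.40 ± 0.11 (limma adjusted p = 0.0265).

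Several of these calls were lost in fits with 1 array fewer, which have fewer degrees of freedom, so a lost call need not mean a changed difference. Without replicate 1 or 2 of MDA-MB-231, MSN in 231BoM-1833 was at 0.52 and 0.45, and ERBB2 in 231BrM-2a at 0.49 and 0.41. Leaving out an array of 231BrM-2a repeats the fit of 231BoM-1833 and MDA-MB-231 alone. MSLN in 231BoM-1833 stayed at 0.47 there, since 231BrM-2a does not enter that difference. Without either array of MDA-MB-231 the calls of MSLN and MSN in 231BoM-1833 and of ERBB2 in 231BrM-2a were lost, and that of ERBB2 also without either array of 231BrM-2a. The MSLN call in 231BoM-1833 was lost too without replicate 2 of 231BoM-1833 or either array of 231BrM-2a, and that in 231BrM-2a without replicate 2 of MDA-MB-231 or of 231BrM-2a. Between the derivatives, the LGALS3 call was lost without replicate 2 of 231BoM-1833 or either array of 231BrM-2a, and the ICAM1 call without replicate 2 of either derivative. Over the alternatives the adjusted p of these 6 calls ran from 0.00154 at the lowest to 0.245 at the highest.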

How the data were processed

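Total RNA of the sorted cells was hybridised to 6 arrays, 2 per line. The deposited values are log2 expression per transcript cluster, which the authors normalised with the RMA method of Expression Console (Affymetrix), per the submitters' processing notes. No version is given. RMA quantile-normalises the arrays together, which removes any shift in the total RNA of a cell. The value table held 33297 clusters. The platform annotation paired 21214 with a gene symbol, 19460 with 1 and 1754 with several, and 12083 are unnamed here. Genes were named from clusters with 1 symbol, and the cluster with the highest mean over the 6 arrays stood for a symbol. The 7 genes and the gene lists were chosen with earlier results of these data known.

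The lmFit and eBayes functions of limma 3.58.1 (R 4.3.3) fitted 1 mean per line to the 6 arrays together. Standard errors come from this fit, in which the 3 lines share 1 spread. Tests were two-sided, adjusted by Benjamini-Hochberg across all 21214 named clusters, and called under 0.05. There were 3 residual and 6.06 prior degrees of freedom. From each list and comparison up to 4 called genes with the largest change were named, with the 7 genes, the neighbours, the 5 closest profiles of MUC15 and of AGR2 and the sort markers. Other genes named were chosen after their values were seen. Of the listed genes, 111 were measured, and the others were not used here. In a simulation on 231BoM-1833 against MDA-MB-231 over 21214 clusters, 78% of 100 log2 changes of 1 and 98% of 100 changes of 2 were recovered, with 7 false calls. It used normal noise with the same spread in all lines and changed 200 clusters, far fewer than were called in these data. Its rates therefore need not hold for the real comparisons, nor for a gene with unequal spread such as AGR2. Alternatives were another normalisation, centring, leaving out the dimmest 33.3% of clusters, testing all clusters, trend and robust options, fitting 2 lines alone, a replicate block, the mean over a symbol's clusters and leaving out each array. A block with crossed replicate numbers was added, after the data were seen, to the comparisons of 231BrM-2a. Its numbers were crossed because the replicate gaps ran opposite, which favours a lower p, and it sets the low end of some ranges. The number of arrays limits the precision.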

Additional observations from a re-analysis of the deposited data

Results flagged for a closer look

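Of the listed genes, 5 changed in opposite directions in the derivatives, each against the same 2 arrays of MDA-MB-231, and the difference between the derivatives was itself tested by the contrast of 231BrM-2a with 231BoM-1833 in the same fit. EHF differed by -6.10 (limma adjusted p = 1.9e-08), SPDEF by -1.62 (limma adjusted p = 7.67e-05), GALNT14 by -1.60 (limma adjusted p = 1.39e-05) and C1GALT1 by -1.19 (limma adjusted p = 0.000274), all lower in 231BrM-2a. GALNT10, another enzyme that starts O-glycan chains, went the other way, with log2 values of 10.06 and 10.12 in 231BrM-2a, 9.21 and 9.03 in 231BoM-1833 and 9.52 and 9.60 in MDA-MB-231, a difference of 0.97 between the derivatives (limma adjusted p = 0.000287). Its changes against MDA-MB-231 were smaller, -0.44 ± 0.11 in 231BoM-1833 (limma adjusted p = 0.0275) and 0.53 ± 0.11 in 231BrM-2a (limma adjusted p = 0.00932). The GALNT10 call in 231BoM-1833 was lost without either array of MDA-MB-231 or replicate 2 of 231BoM-1833 (adjusted p over the alternatives 0.0188 to 0.158), and that in 231BrM-2a without replicate 1 of MDA-MB-231 or replicate 2 of 231BrM-2a (0.00546 to 0.0733). With 2 arrays per line, no group was large enough for a single array to be tested as an outlier, and the AGR2 arrays of 231BoM-1833 are given above as values.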

How the results depend on the processing

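MUC15 kept its direction under every alternative run, and with each array left out ran from 3.23 to 3.34, -1.17 to -0.99 and -4.46 to -4.28 in the 3 comparisons. Only the other normalisation, centring and leaving out an array of the lines compared could move its differences. The remaining alternatives change the p and not the difference. AGR2 and MUC1 moved most when an array of 231BoM-1833 was left out: AGR2 ran from 0.74 to 2.88 in 231BoM-1833 against MDA-MB-231 and from -3.49 to -1.35 in 231BrM-2a against 231BoM-1833, and MUC1 from -0.01 to 0.27 and from 1.15 to 1.43. In 231BrM-2a against MDA-MB-231, AGR2 was -1.0 without replicate 1 and -0.22 without replicate 2 of MDA-MB-231, and MUC1 in 231BoM-1833 was 0.05 and 0.21 without them. A lone array is assumed to vary like the other lines. Leaving out each array, the clusters called ran from 932 to 2936 in 231BoM-1833 against MDA-MB-231 (3354 with all arrays), from 1764 to 4751 in 231BrM-2a (4040) and from 3001 to 4750 between the derivatives (4976). The listed genes called then ran from 6 to 24 (19 with all arrays), from 15 to 32 (24) and from 21 to 29 (30). The lowest counts against MDA-MB-231 came without its replicate 2, and of the 19 listed genes called in 231BoM-1833, 6 were still called there without that array and 7 without replicate 1. Testing all 33297 clusters left 2220 clusters and 10 listed genes called in 231BoM-1833. The calls lost there were those of MUC6, MUC21, GALNT10, GALNT12, ST6GALNAC2, ERO1B, SPDEF, FOXA1 and MSLN. In 231BrM-2a against MDA-MB-231, testing all clusters lost those of PODXL, C1GALT1, ST3GAL4, ERP44, ELF3, ELF5 and ERBB2. Between the derivatives it lost those of GALNT9, GALNT12, ST3GAL4, ELF3, GATA3, LGALS3 and MMP14. No called list gene turned sign under any alternative, but several alternatives change the p and cannot change the difference. Leaving out the dimmest clusters removed AGR2 from the test. Replicate numbers did not pair the samples: the correlations of the replicate gaps between lines were 0.04, -0.16 and -0.17 over clusters. With the replicate block, 2724, 3535 and 4564 clusters and 18, 22 and 29 listed genes were called in the 3 comparisons, which lost the calls of MUC21, MSLN, ST3GAL4 and ELF5. A block with crossed numbers, added after seeing the data, called 5768 clusters in 231BrM-2a against MDA-MB-231 and 5741 between the derivatives.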

Other observations

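LCN2, the secreted lipocalin of the list of secretory epithelium, was chosen after its values were seen for its wide replicate gaps in both derivatives. It had log2 values of 8.54 and 10.04 in 231BoM-1833, 10.13 and 8.19 in 231BrM-2a, and 7.57 and 7.11 in MDA-MB-231. Both derivatives lay above MDA-MB-231, by 1.96 ± 0.59 in 231BoM-1833 (limma adjusted p = 0.0547) and by 1.82 ± 0.59 in 231BrM-2a (limma adjusted p = 0.0625), and neither passed the threshold. Its gap in 231BrM-2a, -1.93 for replicate 2 minus replicate 1, was the third largest of 21214 clusters, behind HSPA6 at -2.27 and TNFSF18 at -2.15.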
